A study of Arabidopsis thaliana with 8 samples.

Results

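GSTU20, GSTU22 and GSTU25 are 3 tau-class glutathione transferase genes of Arabidopsis thaliana, read here in rosette leaves of 4 plant lines on Affymetrix ATH1 arrays. An ATH1 array reads each transcript with a set of short oligonucleotides, a probe set, and the members are the probe sets that the platform's annotation gives to 1 of these genes alone. Each gene had 1 such probe set (loci AT1G78370 for GSTU20, AT1G78340 for GSTU22 and AT1G17180 for GSTU25), 3 of 22810 probe sets in all. The 4 lines were wild type Columbia (WT), a flu mutant with the SAIL_136_E05 insertion (flu), line 14-2 of an overexpressor of thylakoidal ascorbate peroxidase (tAPX), and flu plants with that same overexpression (flu tAPX). All plants grew for 3 weeks in continuous light, were kept dark for 8 h, and gave their leaves 2 h into the new light period, so no line was sampled before the light returned. The experiment was done 6 times, and each of the 2 arrays of a line carries RNA pooled over 3 of them, with at least 10 plants per line each time. An array is therefore a pool. The tests set differences against the spread between pools, estimated in part from all tested probe sets. Both overexpressing lines go back to a single transgenic line, and the sources used here do not name the promoter of its transgene.

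Glutathione transferases join the tripeptide glutathione to reactive, electrophilic compounds, which marks them for transport into the vacuole, and several also reduce peroxides or carry ligands. The tau class is specific to plants, sits mainly in the cytosol and grew by tandem duplication, so that neighbouring genes often encode close relatives. Its members are known for widely different regulation: some are made steadily in leaves and others only after herbicides, oxidants or lipid breakdown products. In the flu mutant, protochlorophyllide builds up in the dark and releases singlet oxygen in the light, which oxidises chloroplast lipids. Ascorbate peroxidase at the thylakoid removes hydrogen peroxide, another reactive oxygen species.

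In the TAIR10.1 annotation all 3 members lie on chromosome 1. GSTU20 and GSTU22 belong to 1 cluster that also holds GSTU23, GSTU21 and GSTU19, while GSTU25 stands elsewhere, between GSTU24 and GSTU26. GSTU19 and GSTU24 have no probe set of their own in the annotation used and are not analysed here. Whether the members' probe sets also pick up such relatives was not tested.

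As a check of the labels, TAPX itself, which encodes the overexpressed enzyme, was higher in tAPX than in WT by log2 2.99 ± 0.15 (SE) and in flu tAPX than in flu by 3.75 ± 0.15, as the line names say (limma adjusted p = 3.49e-05 and 3.80e-06). No probe set is named for FLU in the annotation used. The free-text sample descriptions disagree in part with the titles, source names and protocols, which were followed: they name another accession, call the tAPX plants flu mutants, and give replicate 1 of flu, of tAPX and of flu tAPX a shorter time in the light than replicate 2. Median signals of the 8 arrays lay between 153 and 166, and replicate arrays correlated across probe sets with r between 0.938 and 0.981. Of 8 mesophyll genes listed as leaf markers, 4 had a named probe set, and their summed signal was 74144 to 75886 on the arrays with functional FLU and 45097 to 58845 on the flu and flu tAPX arrays. Lower sums thus went with the flu allele. SBPASE, LHCB4.2 and LHCB4.3 were lower in flu than in WT (log2 -0.70, -0.75 and -0.77), whereas RCA had a log2 difference of -0.10 (adjusted p = 0.665). Of 5 guard-cell genes 2 had a named probe set, with sums of 272 to 315 and of 245 to 421 on the same groups of arrays. The phloem, trichome, root and flower lists had none. The part of the marker shift in the results below was not tested.

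GSTU25 was near the bottom of the scale in both lines with functional FLU and among the bright signals in both flu lines. This enzyme is known for conjugating the explosive trinitrotoluene and for its induction by xenobiotics. Its signal, a linear value that MAS5 computes per probe set, was 9.10 and 55.3 on the WT arrays, 21.2 and 8.12 in tAPX, 1819 and 944 in flu, with 2091 and 1106 in flu tAPX. The 4 arrays of flu and flu tAPX, called flu arrays from here on, all lay far above the 4 others, and the groups did not overlap. Of all tested probe sets, 16.7% had their 4 flu arrays above the 4 others. Line means ran from 14.7 ± 9.24 in tAPX and 32.2 ± 32.7 in WT to 1381 ± 619 in flu and 1599 ± 697 in flu tAPX (SD, n = 2). In that order only the step from WT to flu was larger than the SDs of both its neighbours.

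In flu against WT, GSTU25 was higher by log2 4.97 ± 0.52, a 31.4-fold difference on the scale log2(signal + 16) on which all tests were made (limma adjusted p = 7.99e-05). In flu tAPX against tAPX, whose line means come from the other 4 arrays, the difference was log2 5.68 ± 0.52 or 51.3-fold (adjusted p = 2.26e-05). The SE and p-value of each comparison come from the fit to all arrays with a shared estimate of the spread. These tests are therefore not independent of each other. The mean of both responses was log2 5.33 ± 0.36, with a 95% interval from 4.51 to 6.14. Because the signals with functional FLU are dim, the size of these differences depends on the constant added before the logarithm: with 1 in place of 16 they were log2 5.78 and 6.74, and with 64 they were 3.88 and 4.34. GSTU25 passed the filter on dim probe sets, which asked for a signal above the 40th percentile of the array on at least 2 arrays, through its 4 flu arrays alone. Entry that way favours genes that are higher on flu arrays, but it does not fix a call. GSTU28, of the same family, entered likewise and was called in neither flu against WT nor flu tAPX against tAPX. Whether RNA per cell or the share of cells with the transcript rose cannot be told apart in leaf RNA.

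GSTU22 was also higher in both flu lines, from a low level to a moderate one. Little is known of its preferred substrates. The signal was 73.6 and 27.8 in WT, 78.8 and 44.2 in tAPX, 263 and 294 in flu, with 335 and 184 in flu tAPX. Again all 4 flu arrays were above all 4 others, as on 16.7% of all tested probe sets. The lowest flu array, the second of flu tAPX, stood closer to the rest. Line means were 50.7 ± 32.4 in WT, 61.5 ± 24.4 in tAPX, 260 ± 107 in flu tAPX and 279 ± 22.1 in flu (SD, n = 2), and the step from tAPX to flu tAPX is the only one larger than both SDs.

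The difference of GSTU22 was log2 2.23 ± 0.43 in flu against WT (4.70-fold, adjusted p = 0.00478) and 1.81 ± 0.43 in flu tAPX against tAPX (3.51-fold, adjusted p = 0.00973). The latter did not pass without tAPX replicate 2 (log2 1.48, adjusted p = 0.0847) or without flu tAPX replicate 1 (1.40, adjusted p = 0.0544). Over both backgrounds the mean was log2 2.02 ± 0.31, with a 95% interval from 1.34 to 2.71. Like GSTU25, the gene was above the 40th percentile on every flu array. It was above it on 5 of 8 arrays in all and above the 75th percentile on none.

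GSTU20 was bright in every line, and none of the comparisons between lines passed the test. The gene is also known as FIP1, for a protein that binds the jasmonate-conjugating enzyme FIN219 and takes part in far-red light responses. Its signal was 3161 and 4190 in WT, 4358 and 4520 in tAPX, 5158 and 2596 in flu, with 4754 and 2264 in flu tAPX. The highest and the lowest values both fell on flu or flu tAPX arrays, and the tAPX values lay above those of WT but inside the ranges of both flu lines. The higher array was replicate 1 in flu and in flu tAPX, the replicate that the free-text descriptions give a shorter time in the light. They give tAPX replicate 1 a shorter time as well, where GSTU20 was at 4358 beside 4520 in replicate 2. GSTU25 was also higher on replicate 1 of both flu lines, at 1819 beside 944 in flu and 2091 beside 1106 in flu tAPX. GSTU22 was higher on replicate 1 in flu tAPX (335 and 184) but not in flu (263 and 294). The part of that time in these gaps was not tested. All 8 GSTU20 values were above the 75th percentile of their own array. Line means were 3509 ± 1761 in flu tAPX, 3675 ± 727 in WT, 3877 ± 1812 in flu and 4439 ± 114 in tAPX (SD, n = 2). Each step in this order was smaller than the larger SD of its neighbours.

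For GSTU20 the difference was log2 0.01 ± 0.37 in flu against WT, with a 95% interval from -0.81 to 0.82 (adjusted p = 0.989). In flu tAPX against tAPX it was -0.43 ± 0.37, from -1.25 to 0.38 (adjusted p = 0.396). These intervals leave room for changes of up to 1.77-fold upward in the first and 2.38-fold downward in the second comparison, so the gene was steady in its line means only within wide limits. The direction turned with single arrays. Without flu replicate 1 the first difference was -0.49 and without WT replicate 1 it was -0.19, and without flu tAPX replicate 2 the second was 0.10. Without flu tAPX replicate 1 the second difference was -0.97 and passed (adjusted p = 0.0437).

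The scale of the arrays matters for GSTU20 as well. The array carries 24 probe sets for bacterial poly-A control transcripts that can be spiked into samples, and the labels do not say how much was added. With arrays scaled to equal brightness of these controls, GSTU20 was lower in flu tAPX against tAPX by log2 -1.10 (adjusted p = 0.00561) and its mean flu response of -0.21 ± 0.26 became -0.53 (adjusted p = 0.0446). That scaling moved the median of all tested probe sets in the first of these comparisons from log2 -0.16 to -0.79. Relative to the median, GSTU20 stood at -0.27 as deposited and at -0.31 with spike-in scaling. GSTU22 and GSTU25 stayed higher under it, by 1.22 and 5.15 in the same comparison.

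**Figure D1:**
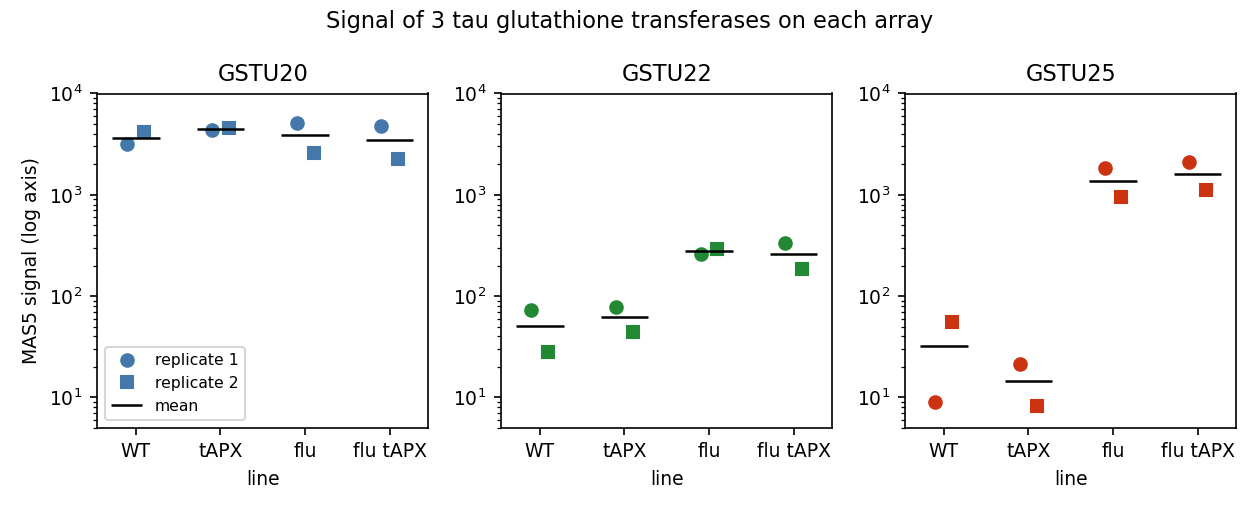
MAS5 signal on a log axis for GSTU20, GSTU22 and GSTU25 in the 4 lines. Circles and squares are replicates 1 and 2 and bars are line means. GSTU25 lies at 8.12 to 55.3 in WT and tAPX and at 944 to 2091 in flu and flu tAPX, GSTU22 rises over a smaller range, and GSTU20 stays between 2264 and 5158 with its widest spread inside the flu lines.

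Of 14947 tested probe sets, 23.9% were called in flu against WT, 11.4% of all as higher, and 33.5% in flu tAPX against tAPX, 15% as higher. In the mean flu response 44.3% were called, 17.1% higher and 27.2% lower, and on 16.7% the 4 flu arrays all lay above the 4 others. GSTU22 and GSTU25 thus belong to a large set of raised probe sets. Since they were chosen with their response known, their count, 2 of 3, carries no weight of its own. Over all probe sets in the test the median difference was log2 -0.20 in flu against WT and -0.16 in flu tAPX against tAPX, well below both genes.

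The transgene comparisons asked whether extra thylakoid peroxidase changed these genes. In plants with functional FLU, tAPX against WT gave log2 0.29 ± 0.37 for GSTU20, 0.27 ± 0.43 for GSTU22 and -0.50 ± 0.52 for GSTU25, each with an adjusted p of 0.980. In the flu background, flu tAPX against flu gave -0.16 ± 0.37, -0.15 ± 0.43 and 0.21 ± 0.52 for the same genes in turn (adjusted p = 0.967, 0.972 and 0.969). The 95% interval for GSTU25 in flu plants ran from -0.94 to 1.36, which spans a 2.57-fold rise. For GSTU22 it ran from -1.12 to 0.82. With 2 arrays per line these intervals leave room for a 2-fold rise of GSTU25 and a 2-fold fall of GSTU22. In each of these comparisons the test called 1 probe set, 0.00669% of those tested, which was TAPX, while 578 and 826 had an unadjusted p under 0.05.

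The interaction, the response to flu with extra peroxidase minus the response without it, was 0.71 ± 0.73 for GSTU25, -0.42 ± 0.61 for GSTU22 and -0.44 ± 0.52 for GSTU20 on the log2 scale. None passed (adjusted p = 0.846, 0.904 and 0.873). limma called 0 of 14947 probe sets (0%) in this comparison, with 1031 at an unadjusted p under 0.05. Single arrays turned the sign for all 3 genes, and the interval of GSTU25 ran from -0.91 to 2.33.

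**Figure D2:**
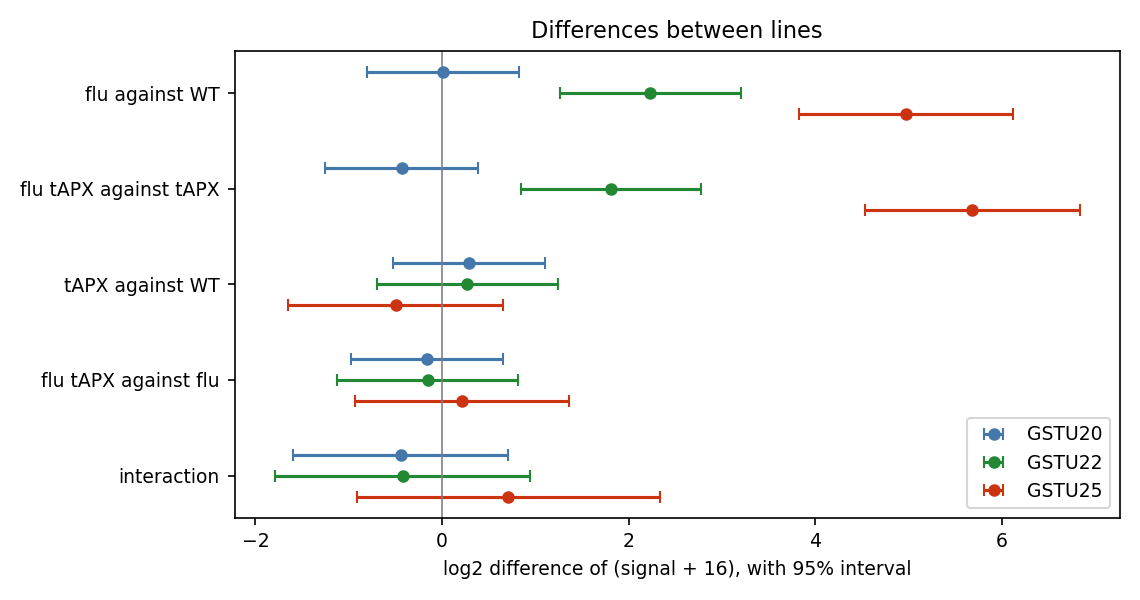
Log2 differences of (signal + 16) between lines for the 3 genes, with 95% intervals from the limma fit of all 8 arrays. In both responses to flu the intervals of GSTU22 and GSTU25 lie above 0 and that of GSTU20 spans 0, and for the transgene and the interaction all intervals span 0.

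The members were also set against each other within arrays. The scale of an array then cancels only in part, because 16 is added before the logarithm and GSTU25 is dim in WT and tAPX: its shift against GSTU20 in flu tAPX against tAPX was 6.12 as deposited and 6.25 with spike-in scaling. Levels of different probe sets cannot be compared, since each set binds with its own strength, but a shift of the difference between lines shows unequal change. The difference of GSTU25 minus GSTU20 on the log2(signal + 16) scale was -6.98 and -5.88 in WT and -6.88 and -7.55 in tAPX. The corresponding pairs were -1.50 and -1.44 for flu plants, then -1.18 and -1.02 for flu tAPX plants. The replicate values in the flu lines lay close together although both genes singly were lower on the second array of each flu line. Between replicates 1 and 2 of flu, GSTU25 was at 1819 and 944 while GSTU20 was at 5158 and 2596.

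For GSTU22 minus GSTU20 the values were -5.15 and -6.59 in WT, -5.53 and -6.23 in tAPX, -4.21 and -3.07 in flu, with -3.76 and -3.51 in flu tAPX. The shift between lines was smaller and the replicates of flu were further apart. The mean response to flu thus differed by log2 5.54 between GSTU25 and GSTU20, by 2.23 between GSTU22 and GSTU20 and by 3.31 between GSTU25 and GSTU22. The sizes depend on the added constant: with 1 in place of 16 they were 6.47, 2.54 and 3.94, and with 64 they were 4.32, 1.68 and 2.64. These are descriptions, with no test, since the members were chosen for this contrast.

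**Figure D3:**
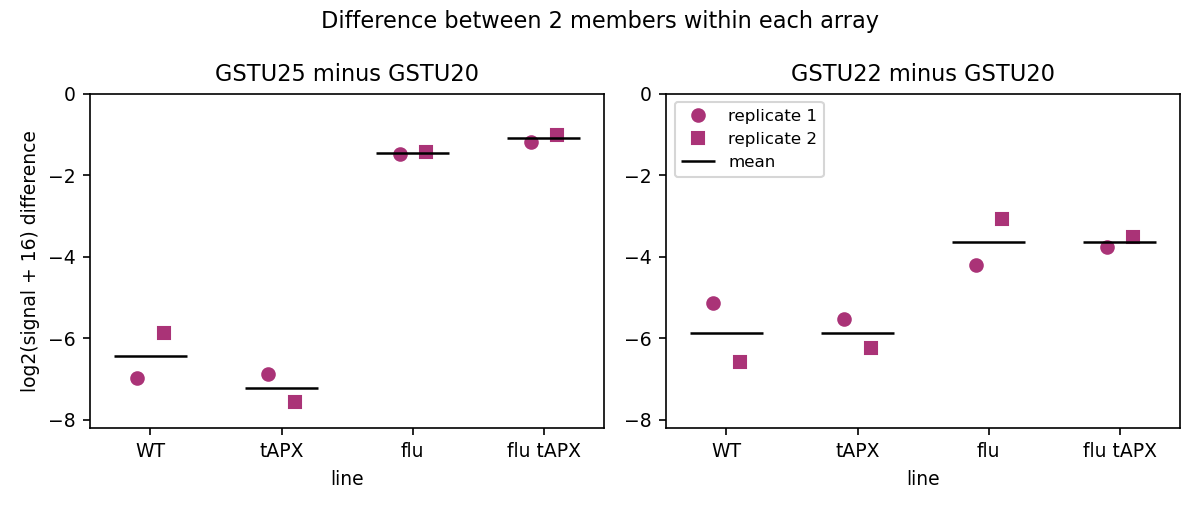
Difference between 2 genes on the same array, in log2(signal + 16), for GSTU25 minus GSTU20 on the left and GSTU22 minus GSTU20 on the right. Points are arrays and bars are line means, and only shifts between lines carry meaning. On the left the flu and flu tAPX points, at -1.50 to -1.02, are separate from the others at -7.55 to -5.88.

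In the wider family, only 14 glutathione transferase genes had a probe set of their own in the annotation used, and 11 passed the filter. Of the other 8 tested ones, 0 were called higher and 1 lower in flu against WT, beside 11.4% and 12.5% of all tested probe sets. In flu tAPX against tAPX 0 were higher and 3 lower, beside 15% and 18.5%. So few genes cannot tell such counts from those shares. Their median log2 differences were -0.28 and -0.08, beside -0.20 and -0.16 over all tested probe sets. The 3 that did not pass the filter, ATGSTF13, GSTU21 and GSTU15, had signals between 3.07 and 59.6. In the mean flu response 1 of the 8, GSTU28, was called higher and 3 lower, beside 17.1% and 27.2% of all tested probe sets. GSTU28 and GSTF4, like GSTU22 and GSTU25, had all flu arrays above the others, where 16.7% of all tested probe sets had, and GSTU27, GSTU18 and GSTL3 had all of them below, where 26% had.

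GSTU27, another tau-class gene, was lower in flu. Its signal was 1676 and 1449 in WT, 1998 and 1863 in tAPX, 672 and 750 in flu, with 649 and 613 in flu tAPX. Both flu lines lay below both others. The differences were log2 -1.12 ± 0.17 and -1.59 ± 0.17 (adjusted p = 0.00101 and 6.39e-05). GSTU18, also of the tau class, was lower in flu tAPX than in tAPX by log2 -0.85 ± 0.17 (adjusted p = 0.00399), and had -0.43 ± 0.17 in flu against WT (adjusted p = 0.0984). GSTL3, of the lambda class, whose members reduce oxidised thiols and flavonoids rather than conjugate, had -0.47 ± 0.14 and -0.39 ± 0.14 in these comparisons (adjusted p = 0.0301 and 0.0763). Its call in flu tAPX against tAPX was lost without either WT array (adjusted p = 0.0501 and 0.0519), without either tAPX array (0.130 and 0.170) or without flu tAPX replicate 1 (0.0710). It was lost as well with no filter, with quantile normalization, with no variance trend and on the 4 arrays alone (0.0620, 0.0509, 0.0768 and 0.0735).

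Of the other genes in these clusters, GSTU23 and GSTU26 were tested, and neither passed in a response to flu. GSTU23, in the cluster of GSTU20 and GSTU22, averaged 86.0 ± 16.1 on the WT arrays against 80.8 ± 47.9 on those of flu, a log2 difference of -0.16 ± 0.41 (adjusted p = 0.812). GSTU26, next to GSTU25, was at 64.3 and 81.0 in WT, 82.9 and 84.6 in tAPX, 13.7 and 42.2 in flu, with 50.1 and 90.5 in flu tAPX. It was above the 40th percentile on the tAPX arrays only and passed the filter through that line. Its log2 difference of -1.09 ± 0.52 in flu against WT did not pass (adjusted p = 0.158). GSTU28 had values of 1.12 ± 0.51 and 0.98 ± 0.51 in the responses to flu (adjusted p = 0.138 and 0.168), and its mean flu response of 1.05 ± 0.36 passed (adjusted p = 0.0373). It did not pass when dim probe sets were kept in (adjusted p = 0.0528), with spike-in scaling (log2 0.79, 0.0990), and without WT replicate 2 (0.0985), flu replicate 1 or 2 (0.0627 and 0.109), tAPX replicate 1 or 2 (0.0520 and 0.135) or flu tAPX replicate 2 (0.0968). Like GSTU25, GSTU28 was above the 40th percentile on flu arrays only. GSTF4, of the phi class, had 0.23 ± 0.31 and 0.83 ± 0.31 (adjusted p = 0.622 and 0.0616, the latter 0.0239 with no variance trend), and GSTU16 had 0.21 ± 0.23 and 0.10 ± 0.23 (0.538 and 0.776).

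**Figure D4:**
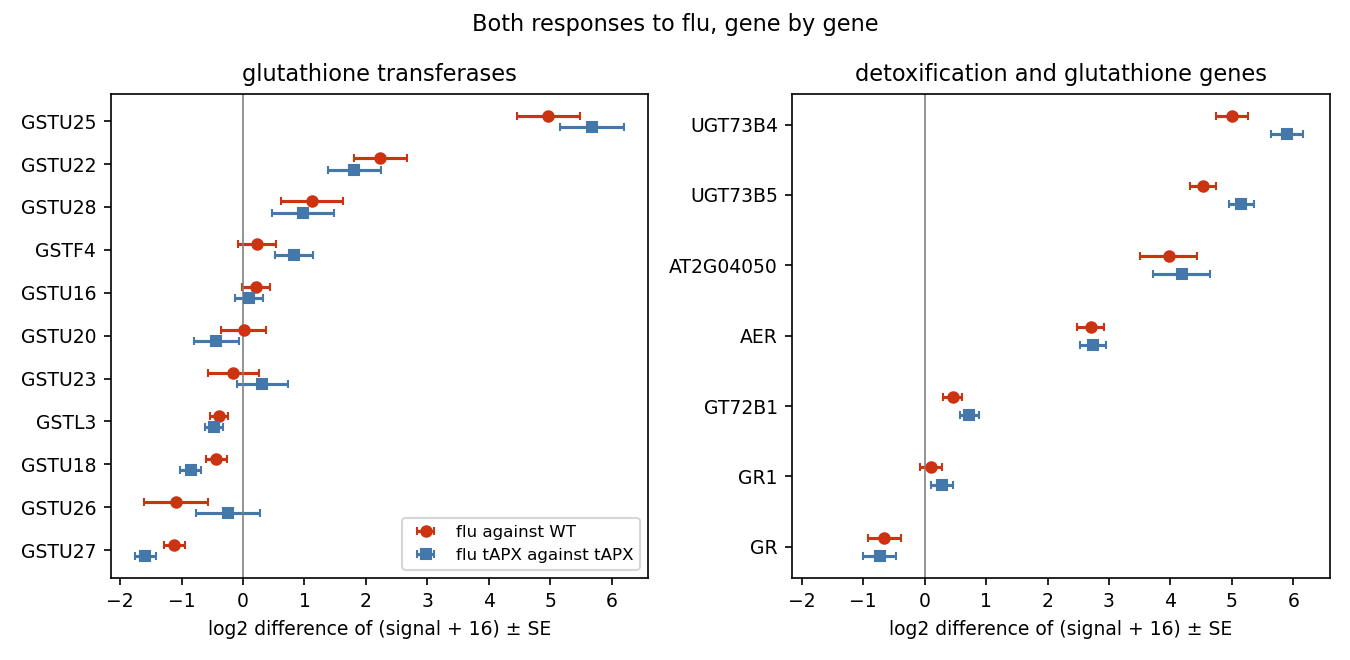
Log2 difference of (signal + 16) with its SE in flu against WT (circles) and flu tAPX against tAPX (squares) for the tested glutathione transferases on the left and the tested detoxification and glutathione genes on the right. Among the 11 tested genes on the left GSTU25 and GSTU22 stand at the top and GSTU27 at the bottom, with log2 -1.12 and -1.59. GSTU22 and GSTU25 were chosen with their response known, and family genes without a named probe set are not shown.

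Conjugation to glutathione is 1 of several detoxification routes, and genes of the others were looked up in a list of 22, of which 5 had a tested probe set. Of these 4 were higher in flu against WT, where 11.4% of all tested probe sets were, and 5 in flu tAPX against tAPX, where 15% were, with none lower. Their median log2 differences were 3.97 and 4.18, beside -0.20 and -0.16 over all tested probe sets. UGT73B4, UGT73B5 and AT2G04050 passed the filter through flu arrays alone, while AER and GT72B1 were above its cut on every array. Entry through flu arrays favours genes that are higher there, and the list was chosen with earlier results of these data known. The counts and medians carry no weight for these reasons. AER, an alkenal reductase that disarms lipid peroxidation products, was read at 583 and 695 in WT, 704 and 674 in tAPX, 5013 and 3569 in flu, with 5452 and 4025 in flu tAPX. Its differences were log2 2.70 ± 0.22 and 2.74 ± 0.22, and no flu array came near the others. The glycosyltransferases UGT73B4 and UGT73B5, which attach sugars to small molecules, had 5.01 ± 0.26 and 4.53 ± 0.21 in flu against WT and 5.89 ± 0.26 and 5.16 ± 0.21 in flu tAPX against tAPX. UGT73B4 had signals of 6.77 to 12.8 with functional FLU, and with 1 or 64 added in place of 16 its differences were 6.09 and 3.64 in the first comparison and 7.33 and 4.35 in the second. For UGT73B5 they were 4.86 and 3.84, then 5.47 and 4.46. AT2G04050, a transporter of the MATE family, which carries compounds out of the cytosol, went from 40.7 ± 38.6 in WT to 764 ± 21.9 in flu (log2 3.97 ± 0.46, or 4.60 and 3.03 with 1 and 64 added).

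GT72B1, a glycosyltransferase that acts on chlorinated phenols and anilines, changed least. It had log2 0.46 ± 0.15 in flu against WT (adjusted p = 0.0516) and 0.73 ± 0.15 in flu tAPX against tAPX (adjusted p = 0.00425). The former passed with a filter at the 60th percentile (adjusted p = 0.0410), with the replicate number as a block (0.0473) and without either flu tAPX array (0.0252 and 0.0262). The latter call was lost without tAPX replicate 1 (log2 0.66, adjusted p = 0.0565) and with spike-in scaling (0.06, adjusted p = 0.837). Glutathione itself is kept reduced by glutathione reductases, and of 24 genes listed for its synthesis and turnover only 2 had a tested probe set. GR, the plastid and mitochondrial form, had log2 -0.66 ± 0.27 and -0.73 ± 0.27 in the responses to flu (adjusted p = 0.111 and 0.0633). The first passed without either flu tAPX array (adjusted p = 0.0317 and 0.0338). The second passed with spike-in scaling (log2 -1.40, adjusted p = 0.00210), with the replicate number as a block (0.0313), without either flu array (0.0475 and 0.0486) and without flu tAPX replicate 2 (log2 -1.12, 0.00686). Its mean flu response of -0.69 ± 0.19 passed (adjusted p = 0.0152), but not without WT replicate 1, flu replicate 1 or tAPX replicate 1 (0.0598, 0.0574 and 0.0502). GR1, the cytosolic form, had 0.10 ± 0.18 and 0.28 ± 0.18 (adjusted p = 0.715 and 0.255). None of 4 listed transcription factors of the xenobiotic response had a named probe set.

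The probe sets whose pattern was most like that of each member were found among 8139 other tested ones with 1 gene, by Pearson's r over the 8 arrays on the log2(signal + 16) scale. For GSTU25 these were AT5G67350 (r = 0.996), AT1G14130 (0.994), AT1G21550, AT4G13180 and AT4G24350 (0.993 each). AT4G13180 had signals of 581 ± 185 in WT, 513 ± 40.1 in tAPX, 4583 ± 114 in flu and 6147 ± 1243 in flu tAPX. For GSTU22 they were AT5G05300 (0.990), AT5G19240 (0.988), AT1G23960 (0.982), AT5G57910 (0.981) and AT3G10930 (0.980). The last had 37.3 ± 48.4 in WT and 325 ± 51.0 in flu. Pearson's r does not depend on the size of a change. AT1G23960 went from 999 ± 61.3 in WT to 1325 ± 28.3 in flu. It passed in neither response to flu (limma adjusted p = 0.101 and 0.146), while the others did in each. For GSTU25 and GSTU22 the arrays fall into a flu cluster and a cluster with functional FLU, so the correlations mainly restate that separation.

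For GSTU20 the most similar genes were BSH (r = 0.981), a subunit of a chromatin remodelling complex, AT1G62820 (0.966), HGPT (0.965), a purine salvage enzyme, AT4G31270 (0.957) and AT5G57120 (0.954). BSH had 254 and 317 in WT, 341 and 364 in tAPX, 361 and 214 in flu, with 345 and 214 in flu tAPX. Like GSTU20, it was lowest on the second array of each flu line. HGPT was at 288 and 131 in flu and at 272 and 91.8 in flu tAPX, the same order between replicates. The genes compared here were read on the same 8 arrays, from the same RNA and under the same scaling, and what sets the second flu arrays apart was not tested.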

How the data were processed

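Signals were measured on 8 arrays, 2 per line, with lines and replicate numbers from the titles. The deposited intensity values, linear and never negative, were made by the authors with MAS5 (version not given), per the submitters' processing notes. From the values, the middle 96% of each array's signals averages about 500.0. Detection calls are not used here, so dim signals have no call. The number of arrays limits the precision.

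From these, log2(signal + 16) was computed; the constant sets the size of differences of genes that are dim in some lines. After leaving out 64 controls and probe sets not above the 40th percentile on at least 2 arrays, 14947 remained. One linear model of the 4 line means was fitted to all 8 arrays in limma 3.58.1 (R 4.3.3) with a variance trend. P-values are two-sided and Benjamini-Hochberg adjusted over all tested probe sets, with a threshold of 0.05. The fit was tested on simulated data. Probe sets were named through the platform's annotation and the TAIR10.1 gene table: 13513 had 1 gene, 503 several and 8794 none there.

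The text names the 3 members, TAPX, all family and pathway genes called in either response to flu, then by mean signal up to 6 of the other family genes and 3 of the other pathway genes, family genes that neighbour a member, and the 5 probe sets most like each member. Members and lists were chosen with earlier results of these data known. Alternatives were other pseudocounts, filters, scalings, variance settings, arrays left out, a replicate block, and fits of the compared lines alone. The labels name no batch.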

Additional observations from a re-analysis of the deposited data

How the results depend on the processing

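GSTU25 in both responses to flu and GSTU22 in flu against WT kept their direction and their call under all 17 alternatives. GSTU22 in flu tAPX against tAPX kept its call under 15 of 17. The difference itself cannot change with another filter, with no variance trend or with the replicate block. Nor can it change in fits of the compared lines alone or without an array of another line. Those settings bear on the call only. The genes were chosen with their response known, and GSTU25 passed the filter through its flu arrays alone. In the fits that leave out an array of the compared lines, 1 sample stands for its line and is assumed to vary like the others. Over the fits without 1 array each, GSTU20 ranged from -0.49 to 0.50 in flu against WT, from -0.97 to 0.10 in flu tAPX against tAPX, from -0.48 to 0.053 in the mean flu response, from -0.69 to 0.38 in flu tAPX against flu and from -0.97 to 0.091 in the interaction. GSTU22 ranged from 1.40 to 2.22 in flu tAPX against tAPX, from -0.25 to 0.79 in tAPX against WT, from -0.56 to 0.26 in flu tAPX against flu and from -0.94 to 0.094 in the interaction. GSTU25 ranged from -1.25 to 0.26, from -0.25 to 0.68 and from -0.043 to 1.46 in the last 3 of these. Of the other genes, GSTU16 ranged from -0.028 to 0.46, GSTU23 from -0.69 to 0.37 and GR1 from -0.0042 to 0.21 in flu against WT, GSTU16 from -0.13 to 0.33 and GSTU26 from -0.59 to 0.094 in flu tAPX against tAPX. Called probe sets ranged from 1852 to 4663 in flu against WT (3570 with all arrays), from 2825 to 5364 in flu tAPX against tAPX (5014), from 1 to 72 in flu tAPX against flu (1) and from 0 to 185 in the interaction (0). The lower counts in flu against WT came without WT replicate 1 or 2 (1962 and 1852) and without flu replicate 1 or 2 (2275 and 2285), those in flu tAPX against tAPX without tAPX replicate 1 or 2 (2942 and 2825). The 72 and 185 both came without flu tAPX replicate 1, and 2 were called in flu tAPX against flu without flu tAPX replicate 2. Quantile normalization turned GSTU20 in flu against WT to -0.027. With poly-A scaling, GSTU20 passed as lower in flu tAPX against tAPX (-1.10) and in the mean response (-0.53), GSTU25 in flu tAPX against flu turned to -0.33, and GSTU16, GSTU23 and GR1 in flu tAPX against tAPX turned to -0.56, -0.28 and -0.39. That scaling called 2335 probe sets in flu against WT (65.7% of them higher, against 47.6% as deposited), 8850 in flu tAPX against tAPX (14.3% against 44.7%), 3 in tAPX against WT, 16 in flu tAPX against flu and 514 in the interaction. The mean log2 signal of these controls was 9.45 and 9.09 on the flu tAPX arrays and between 8.55 and 8.89 on the others, and the cause was not tested.

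The labels do not say that equal replicate numbers share experiments. The differences between replicates correlated between lines with r from -0.08 to 0.35, highest between flu and flu tAPX. With the replicate block 3963 probe sets were called in flu against WT, 5521 in flu tAPX against tAPX and 2 in tAPX against WT, and no call of the 3 members changed.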
